A study of Mus musculus with 6 samples.

Results

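The insulin and insulin-like growth factor (IGF) pathway was followed through 39 genes, from the IGF ligands and receptors to the PI3K, AKT, FOXO and mTOR genes inside the cell, in the ovaries of mice that carry a Dennd1a transgene and of wild-type mice. The genes were taken by symbol from the deposited expression table, and all 39 were found among its 18280 genes. Ovaries of 3 Dennd1aTG mice (TG) and of 3 WT mice were collected 44 h after an injection of PMSG, a gonadotropin with FSH activity that every animal received, so the controls were stimulated too. The labels give neither strain, age nor the promoter and construct of the transgene, and the design text counts 3 animals per genotype. DENND1A acts in endocytic traffic, and the title of the series ties it to the transport of the FSH receptor in granulosa cells.

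IGF1 and insulin bind tyrosine kinase receptors at the cell surface, which phosphorylate the adaptor proteins IRS1 and IRS2. These recruit class I PI3-kinases, whose lipid product brings AKT to the membrane, where PDK1 and mTOR complex 2 activate it. AKT then holds the FOXO transcription factors out of the nucleus and relieves the brake that TSC1 and TSC2 place on RHEB and mTOR complex 1. In the ovary IGF1 from granulosa cells amplifies the response to FSH, IGF-binding proteins hold the ligand back, and the protease PAPP-A frees it again by cutting IGFBP4 and IGFBP5. FSH itself also reaches AKT, SGK1 and FOXO1 in granulosa cells, which is why the pathway is read beside FSH action.

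Estimated counts summed to between 17075484 and 18516171 per library. Dennd1a was 13-fold higher in TG than in WT libraries (95% interval 11.1 to 15.3), as the labels call for. Summed markers of granulosa and theca cells were abundant in all 6 ovaries, at 5142 to 6537 and 26226 to 30514 normalised counts-per-million (CPM). Inha made up most of each granulosa sum, and Cyp11a1 and Hsd3b1 together most of each theca sum, whereas Insl3 measured 5.59 to 11.2 CPM. All 9 granulosa, 7 theca and 9 oocyte markers were detected. TG replicate 2 had the highest adipocyte marker sum, 549 CPM against 226 to 360 in the others. Plin4, at 198 to 358 CPM, made up most of each sum. Cfd, Adipoq, Retn and Cidec were highest in TG replicate 2 and next highest in WT replicate 3, where Plin4 was lowest. Cfd measured 86.8 CPM in TG replicate 2 and 9.45 CPM in WT replicate 3. WT replicate 3 had the highest sums of oviduct markers (42.1 against 0.930 to 6.44 CPM) and of smooth muscle markers (2043 against 1199 to 1532 CPM). Ovgp1 alone gave 40.9 CPM of that oviduct sum. Pax8 was also highest in WT replicate 3 (0.705 CPM), whereas Foxj1 (0.294 CPM) and Sntn (0.117 CPM) were not, and Dynlrb2 had 1 count there. These are bulk libraries of whole ovaries, so fewer cells of a type and less RNA per cell cannot be told apart.

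Because levels of different genes can be compared only per transcript length, the order of the members is given in FPKM. The pathway was present at every step: 25 members averaged 10 FPKM or more, 13 averaged between 1 and 10 FPKM, and only Pappa2, at 0.050 to 0.10 FPKM, was below 1. Igfbp7 led with a mean of 611 FPKM and was the 133rd most abundant gene of the table. It was followed by Sgk1 (189), Akt1 (126), Igfbp4 (120.3), Igfbp2 (96.2), Gsk3a (82.7), Rheb (82.3), Igfbp5 (81.5), Foxo1 (74.4) and Akt2 (60.1 FPKM). Several neighbours in this order did not differ beyond their spread over the 6 libraries. Akt1 (117.5 to 137 FPKM) overlapped Igfbp4 (117.3 to 125 FPKM). From Igfbp2 (84.3 to 111 FPKM) through Gsk3a (78.0 to 89.8), Rheb (77.6 to 88.7) and Igfbp5 (70.9 to 92.3) to Foxo1 (65.2 to 88.8 FPKM), each gene overlapped the next. The ranges of Igfbp7 and Sgk1, of Sgk1 and Akt1, of Igfbp4 and Igfbp2 and of Foxo1 and Akt2 did not overlap. By CPM, which does not correct for length, 8 of these 10 genes were again among the leading 10, and Igf1r and Igf2r, which have long transcripts, took the other places.

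**Figure D1:**
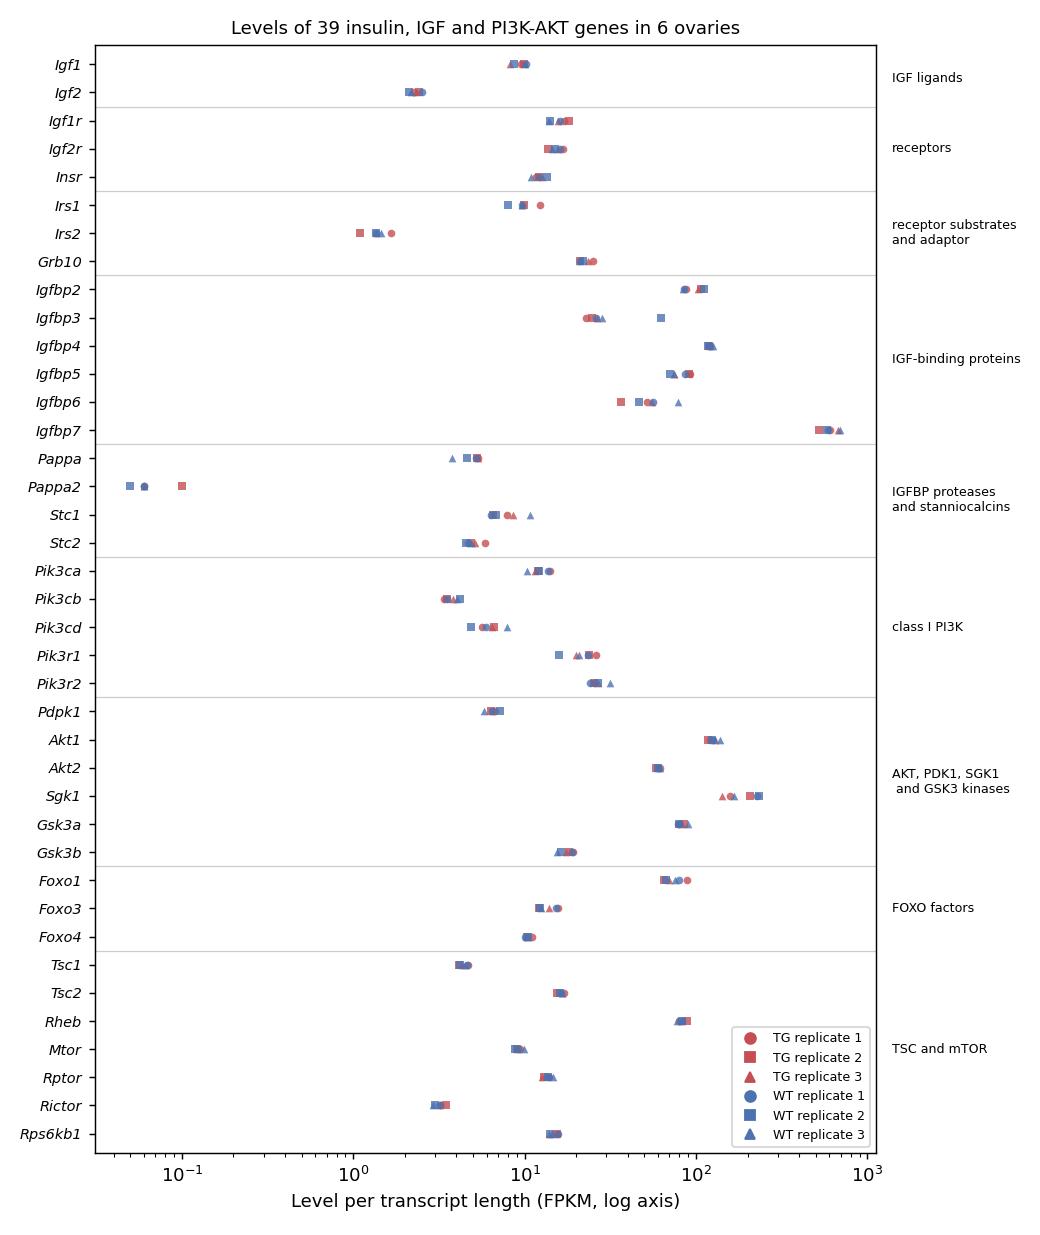
Level per transcript length of each member (FPKM, log axis) in 3 TG (red) and 3 WT (blue) ovaries, with marker shapes for replicates 1 to 3 and genes grouped by role. Levels run from 0.050 FPKM for Pappa2 to 697 FPKM for Igfbp7, and for most genes the 6 points lie on top of each other.

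The ligands were among the lower members and their binding proteins among the higher ones. Igf1 measured 9.52, 9.87 and 8.23 FPKM in TG replicates 1 to 3 and 10.24, 8.69 and 10.07 FPKM in WT replicates 1 to 3, whereas the 6 binding protein genes summed to between 902 and 1088 FPKM per library. Igfbp7 alone made up 58.1% to 64.0% of that sum. IGFBP7 is the member of the set with the weakest hold on IGFs, and IGFBP4 and IGFBP5 are the PAPP-A substrates. Igf2, the fetal growth ligand, was 3.52 to 4.64 times lower than Igf1 within each library.

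In several pairs of genes with related roles the same gene led in every ovary. Irs1 stood 5.94 to 9.09 times above Irs2, Foxo1 5.03 to 6.03 times above Foxo3 and 6.28 to 8.0 times above Foxo4, and Gsk3a 4.05 to 5.82 times above Gsk3b. Akt1 was 1.97 to 2.23 times as high as Akt2, and Tsc2 3.54 to 3.83 times as high as Tsc1. Rptor, the defining subunit of mTOR complex 1, was 3.76 to 5.01 times as high as Rictor, which defines mTOR complex 2. Sgk1, a kinase that FSH induces and that shares targets with AKT, exceeded Akt1 in 6 of 6 libraries, by 1.10 to 1.89 times. Pik3ca, the ubiquitous catalytic subunit, led Pik3cb by 2.58 to 4.20 times and Pik3cd, the subunit best known from leukocytes, by 1.32 to 2.51 times.

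The receptors were closer to each other. Igf1r was 1.05 to 1.5 times as high as Insr in all 6 libraries. Igf2r, which clears IGF2 and carries lysosomal enzymes, was above Igf1r in 4 libraries and below it in 2, so these neighbours did not differ beyond their spread. The regulatory subunits Pik3r2 and Pik3r1 also changed places, with Pik3r2 higher in 5 of 6 libraries.

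**Figure D2:**
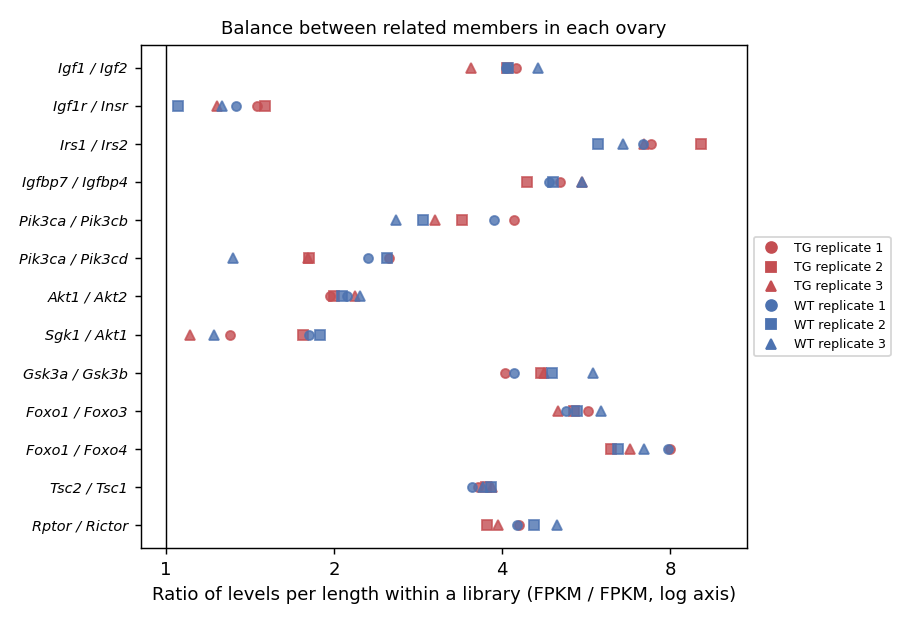
Ratio of FPKM between related members within each library (log axis), for 3 TG (red) and 3 WT (blue) ovaries, with marker shapes for replicates 1 to 3. The 13 pairs were picked among those in which 1 gene led in all 6 libraries, with that gene on top. Every ratio thus lies above 1 by choice, and pairs that changed places, such as Igf2r and Igf1r, are not shown. The TG and WT points overlap for all 13 ratios but Irs1 over Irs2. That ratio runs from 7.18 to 9.09 in TG and from 5.94 to 7.15 in WT.

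Between the genotypes no member of the pathway passed the test. In edgeR's quasi-likelihood test 0 of the 38 members with enough counts had an adjusted p under 0.05, where 1.05% of the 14124 genes tested did. The called genes were nearly all lower in TG (144, or 1.02%, against 5, or 0.0354%, that were higher), among them the interferon-stimulated genes Ifit1, Irf7 and Isg15. DESeq2 and limma-voom also called 0 members. At an unadjusted p under 0.05 there was 1 member, Igfbp3, or 2.63% of the 38, against 4.08% of all genes. The libraries of the genotypes did not overlap for 3 members, Irs1, Pappa and Stc2 (7.89%), against 8.27% of all genes tested. All 38 members had the same adjusted p of 0.9997 in edgeR. Pappa2, with 8 to 15 counts per library, was not tested.

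The estimates were small and their intervals narrow. Differences are given as log2 of the fold change, TG over WT, from the edgeR fit. The median log2 change of the members was -0.01, beside 0.00 over all genes tested. There were 17 members above 0 and 21 (55.3%) below, beside 49.3% of all genes tested below. In 37 of 38 members the estimate was less than 1.3-fold in either direction, the exception being Igfbp3. For 35 members (92.1%) the whole 95% interval lay within 1.5-fold, beside 74.5% of all genes tested. Intervals tend to be wider at low counts, and these sets were not matched for level, so the shares do not set the pathway apart. Sgk1, Igfbp3 and Igfbp6 were the 3 whose intervals reached further, and only that of Igfbp3 reached past 2-fold.

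**Figure D3:**
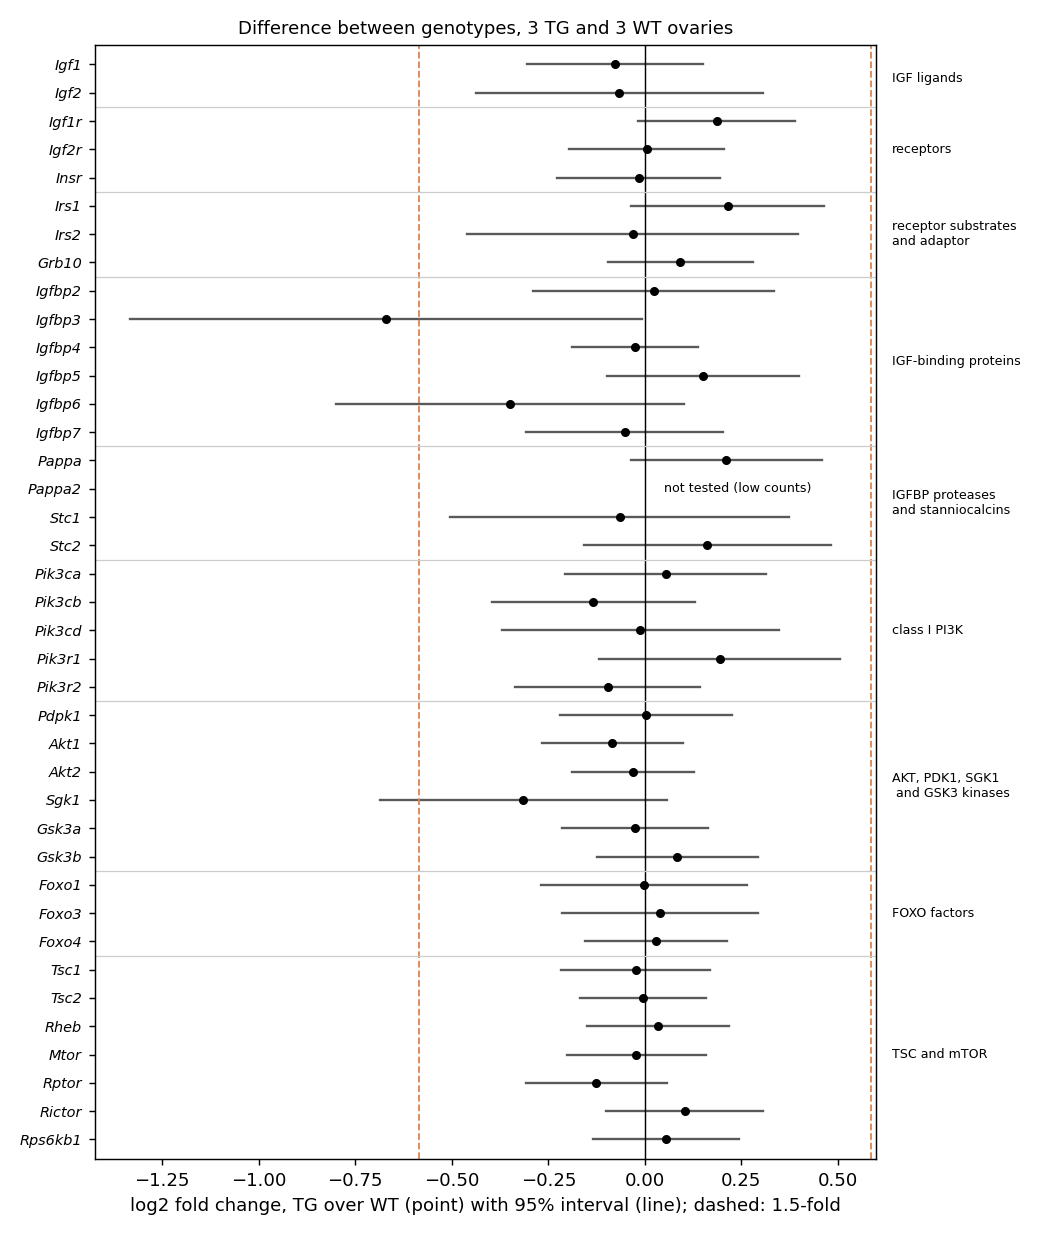
log2 change of TG over WT (points) with the 95% interval of the edgeR model (lines) for 38 tested members, by role, with dashed lines at 1.5-fold. Intervals of 35 members stay between the dashed lines, and those of Igfbp3, Igfbp6 and Sgk1 extend below the lower one.

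Ligands and receptors had close levels in both genotypes. Igf1 (Entrez gene 16000, chromosome 10, 87858265 to 87937047 on GRCm38) measured 64.8, 68.7 and 56.6 CPM in TG and 70.3, 60.5 and 69.8 CPM in WT replicates 1 to 3. The groups overlapped, and the log2 change was -0.08 (SE 0.10, 95% interval -0.30 to 0.15). Igf2 measured 6.38, 5.63 and 7.0 CPM in TG and 7.01, 6.95 and 5.93 CPM in WT, a log2 change of -0.07 with a wider interval of -0.44 to 0.31 at this low level. Insr, the insulin receptor, measured 106, 112 and 115 CPM in TG and 111, 125 and 101 CPM in WT (log2 change -0.02, interval -0.23 to 0.20).

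Igf1r, through which IGF1 acts, had the second smallest p of the members. Its level was 184, 202 and 173 CPM in TG and 177, 159 and 155 CPM in WT. TG replicate 3 lay below WT replicate 1, so the groups overlapped, and the log2 change was 0.19 (SE 0.09, 95% interval -0.02 to 0.39). Irs1, the adaptor that carries the signal on, measured 109, 90.1 and 86.8 CPM in TG and 86.5, 72.8 and 86.7 CPM in WT. The groups did not overlap, but TG replicate 3 and WT replicates 1 and 3 were almost level. The log2 change of Irs1 was 0.22 (SE 0.11, interval -0.03 to 0.47), and it was 0.11 without TG replicate 1 and 0.14 without WT replicate 2. Irs2 and the inhibitory adaptor Grb10 had log2 changes of -0.03 and 0.09.

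Among the binding proteins Igfbp2, Igfbp4, Igfbp5 and Igfbp7 had close levels in both genotypes. Igfbp4, the binding protein cut by PAPP-A in growing follicles, measured 224, 228 and 228 CPM in TG and 228, 225 and 239 CPM in WT, and its 95% interval of -0.19 to 0.14 was among the narrowest. Igfbp2 measured 95.1, 114 and 113 CPM in TG and 95, 130 and 91.7 CPM in WT, with a log2 change of 0.02. Igfbp5, a granulosa product of follicles that are small or regressing, measured 517, 524 and 421 CPM in TG and 486, 407 and 424 CPM in WT, with a log2 change of 0.15 (SE 0.11) that was 0.09 without TG replicate 2. Igfbp7 measured 567, 505 and 638 CPM in TG and 553, 555 and 666 CPM in WT, a log2 change of -0.05. In all 4 genes the groups overlapped.

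Igfbp3 and Igfbp6 had the largest estimates of the pathway, and both estimates depended on 1 or 2 libraries. Igfbp3, the main carrier of IGFs in serum (chromosome 11, 7206086 to 7215498), measured 51.0, 57.0 and 60.2 CPM in TG and 58.8, 144 and 64.6 CPM in WT. WT replicate 2 thus stood more than 2-fold above every other library, while the remaining WT libraries were level with the TG ones. The log2 change was -0.67 (SE 0.29, 95% interval -1.33 to -0.01), and without WT replicate 2 it was -0.14 (interval -0.38 to 0.10). WT replicate 2 also had the highest sum of 8 endothelial markers, 905 CPM against 565 to 749 in the other libraries. Star, the cholesterol carrier of steroid-making cells, was highest there too, 3463 CPM against 1193 to 1976. Other theca markers were mixed: Cyp11a1 was highest in WT replicate 2 (13859 CPM), while Cyp17a1 (294 CPM) and Insl3 (5.59 CPM) were lowest there. The part of endothelial or steroid-making cells in the Igfbp3 value was not tested.

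Igfbp6, which prefers IGF2, measured 56.7, 41.6 and 61.5 CPM in TG and 62.5, 52.4 and 88.9 CPM in WT. The high value was that of WT replicate 3 and the low one that of TG replicate 2. Its log2 change of -0.35 (SE 0.20) became -0.11 without WT replicate 3, -0.20 without TG replicate 2 and 0.04 with both of these libraries left out. WT replicate 3 had the highest smooth muscle sum and the highest oviduct sum, the latter nearly all Ovgp1. Its sums of stroma (3923 CPM), granulosa (6537 CPM), oocyte (226 CPM) and leukocyte markers (479 CPM) were also the highest. Its theca (26226 CPM) and surface epithelium sums (66.4 CPM) were the lowest. TG replicate 2 had the highest adipocyte sum. The part of any of these tissues or cell types in the Igfbp6 value was not tested.

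The genes that set free or protect IGFs gave Pappa and Stc2 among the members without overlap. Pappa measured 48.8, 49.2 and 49.6 CPM in TG, a spread of 0.755% of the mean, and 48.3, 43.1 and 36.0 CPM in WT. WT replicate 1 was level with the TG libraries and WT replicate 3 was lowest. The log2 change of Pappa was 0.21 (SE 0.11, interval -0.04 to 0.46), and it was 0.11 without WT replicate 3. Stc2, a stanniocalcin that inhibits PAPP-A, measured 9.43, 8.04 and 8.28 CPM in TG and 7.54, 7.50 and 7.99 CPM in WT, a log2 change of 0.16 (SE 0.14) that was 0.09 without TG replicate 1. Stc1, which inhibits the same protease, was highest in WT replicate 3 at 38.6 CPM and between 22.6 and 30.6 CPM elsewhere, so its log2 change turned from -0.06 to 0.21 without that library.

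**Figure D4:**
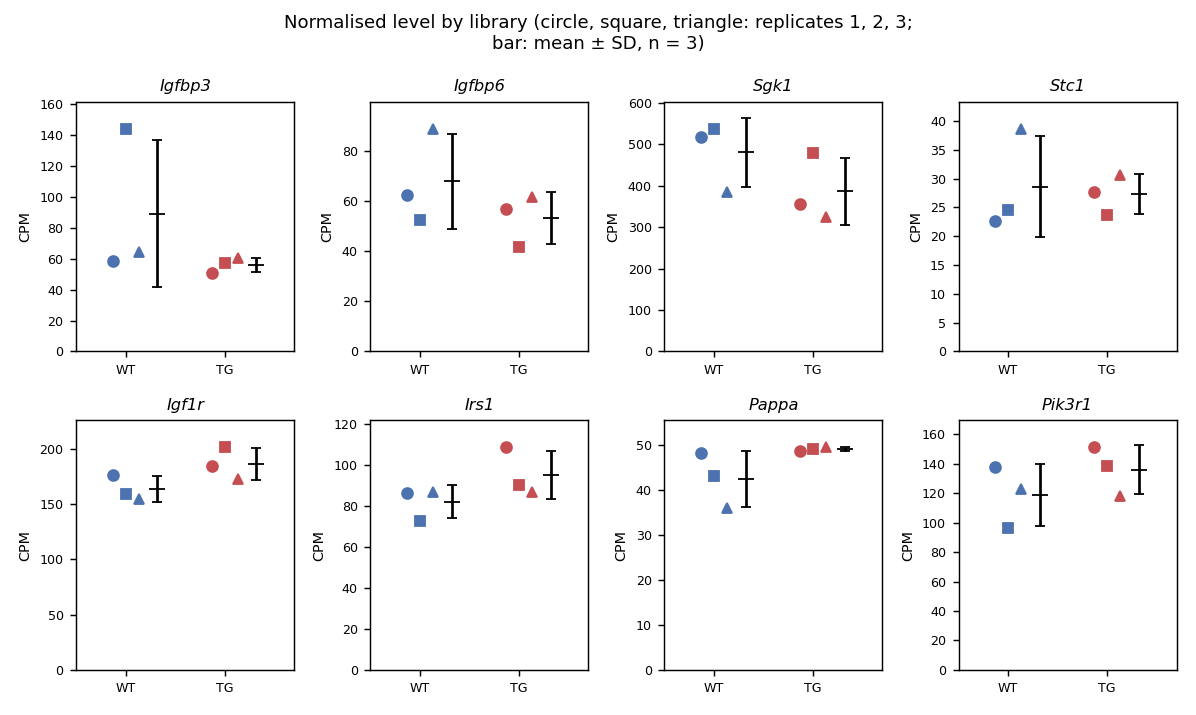
Normalised level (CPM, axes from 0) of 8 members in 3 WT (blue) and 3 TG (red) ovaries, with mean ± SD (n = 3) beside the points. Igfbp3 stands out in WT replicate 2 (144 CPM) and Igfbp6 and Stc1 in WT replicate 3 (88.9 and 38.6 CPM), and the Pappa values of the 3 TG ovaries lie together.

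The PI3-kinase subunits had log2 changes from -0.13 for Pik3cb to 0.19 for Pik3r1, and 0 of 5 passed. Pik3r1, which encodes the regulatory subunits p85-alpha and its short forms, measured 151, 139 and 118 CPM in TG and 138, 96.1 and 123 CPM in WT. The low value was that of WT replicate 2, and the groups overlapped. With 1 library left out the log2 change of Pik3r1 ran from 0.06, without that library, to 0.31, without WT replicate 1. It was 0.11 without TG replicate 1. Pik3ca counts were not whole in 5 of 6 libraries, as when reads are shared with a similar sequence, and its log2 change was 0.05 (SE 0.12).

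Akt1, Akt2 and Gsk3a were among the more even members, whereas Sgk1, described next, varied more between libraries. Akt2, the isoform tied to insulin action, measured 175, 170.2 and 170.5 CPM in TG and 172, 176 and 179 CPM in WT, so that highest and lowest library differed by 1.05 times. Akt1 measured 278, 279 and 302 CPM in TG and 294, 293 and 324 CPM in WT (log2 change -0.08, interval -0.27 to 0.10). Gsk3a, a kinase that AKT inhibits, measured 147, 164 and 159 CPM in TG and 151, 155 and 172 CPM in WT (log2 change -0.02). Pdpk1 and Gsk3b had log2 changes of 0.00 and 0.08.

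Sgk1 (chromosome 10, 21882184 to 21999903) was the 1 member whose call depended on the libraries used. It measured 356, 478 and 325 CPM in TG and 518, 537 and 385 CPM in WT. TG replicate 2 lay among the WT values and WT replicate 3 among the TG values, and with all libraries the log2 change was -0.31 (SE 0.17, 95% interval -0.69 to 0.06). It was -0.50 (adjusted p = 0.441) without TG replicate 2 and -0.45 (0.727) without WT replicate 3. With both left out, 2 libraries per group, Sgk1 was the 1 member that passed in edgeR, at -0.63 (interval -0.85 to -0.42, adjusted p = 0.0324). That pair was chosen for its adipocyte and oviduct markers, with earlier results of these data known, and over all 17 alternatives the adjusted p of Sgk1 ran from 0.0324 to 1.

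The FOXO factors, which AKT and SGK1 phosphorylate, were level. Foxo1, the form that FSH and IGF1 restrain in granulosa cells, measured 471, 355 and 375 CPM in TG and 428, 365 and 408 CPM in WT. The TG mean was 400.1 ± 62.1 CPM and the WT mean 400.4 ± 32.6 CPM (SD, n = 3), and the log2 change was 0.00 (interval -0.27 to 0.27). Foxo3 and Foxo4 had 0.04 and 0.03. Of 20 tested genes from a list of FOXO targets 0 passed, 10 were above 0 and 10 below, and their median was 0.01. Those with the smallest p were Pdk4, which curbs pyruvate oxidation, at 0.36 (SE 0.16), the stress gene Gadd45b at -0.26 (SE 0.15) and the cell-cycle inhibitor Cdkn1b at -0.16 (SE 0.10). The list was not divided into genes that FOXO factors raise and genes they lower, so the balance of signs does not measure FOXO activity. Phosphorylation of AKT and FOXO was not measured.

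In the mTOR branch 0 of 7 members passed, and their log2 changes lay between -0.13 and 0.10. Rptor, at the lower end, measured 71.6, 65.6 and 66.0 CPM in TG and 70.1, 74.4 and 77.3 CPM in WT, with overlap between TG replicate 1 and WT replicate 1. Rheb, the small GTPase that switches mTOR on, measured 105.4, 121 and 111 CPM in TG and 111, 113 and 105.3 CPM in WT. Tsc2 counts were not whole numbers, its gene overlaps Pkd1 in the annotation, and its highest and lowest libraries differed by 1.06 times. Of 20 further mTOR genes 0 passed, with a median of -0.03. Those with the smallest p were the ribosomal protein gene Rps6 at 0.16 (SE 0.08), the mTOR inhibitor Ddit4 at 0.19 (SE 0.10) and Lamtor1, which anchors the complex to lysosomes, at -0.11 (SE 0.08).

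The lowest estimates of the wider pathway were found among genes known from blood cells. Of 19 further PI3K and phosphoinositide genes 0 passed in edgeR and the median was -0.03. In the same test 3 had an unadjusted p under 0.05, beside 4.08% of all genes tested. For 3 the genotypes did not overlap, beside 8.27% of all genes tested. Inpp5d, which encodes the phosphatase SHIP1 of blood cells, measured 13.3, 12.7 and 13.2 CPM in TG and 18.5, 17.2 and 18.6 CPM in WT. The groups did not overlap, and the log2 change was -0.47 (SE 0.11, 95% interval -0.71 to -0.23), which did not pass (adjusted p = 0.130). Pik3ap1, an adaptor of B cells and macrophages, measured 12.8, 19.9 and 9.33 CPM in TG and 22.3, 20.1 and 21.1 CPM in WT, a log2 change of -0.60 (SE 0.23, adjusted p = 0.941). TG replicate 2 was close to the WT libraries, and without it Pik3ap1 passed in edgeR (-0.93, adjusted p = 0.0327).

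Leukocyte markers were lower in the same libraries. The summed level of 11 leukocyte markers was 256, 242 and 248 CPM in TG and 408, 287 and 479 CPM in WT, without overlap. The complement genes C1qa (53.4 to 124 CPM), C1qb (50.3 to 112 CPM) and C1qc (36.8 to 79.6 CPM) together made up most of each sum. Cd4, Cd3e and Cd79a were at 2.11 CPM or less in every library, so the sum says little about lymphocytes. Of the 11 markers 10 had log2 changes below 0 and 0 passed, with a median of -0.62, and none was at 0 in all libraries. The leukocyte phosphatase Ptprc, their defining gene, measured 6.49, 5.28 and 6.01 CPM in TG and 14.7, 10.7 and 9.16 CPM in WT. The part of leukocytes in the values of Inpp5d and Pik3ap1 was not tested. Other PI3K genes known from leukocytes were named here after their values were seen, and in each of them the groups overlapped. Pik3cd had a log2 change of -0.01 (interval -0.37 to 0.35) and Pik3cg, the catalytic subunit downstream of chemokine receptors, of -0.03 (interval -0.43 to 0.37), while Pik3r5, which partners with it, had -0.59 (interval -1.21 to 0.04) at 1.44 to 3.35 CPM.

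**Figure D5:**
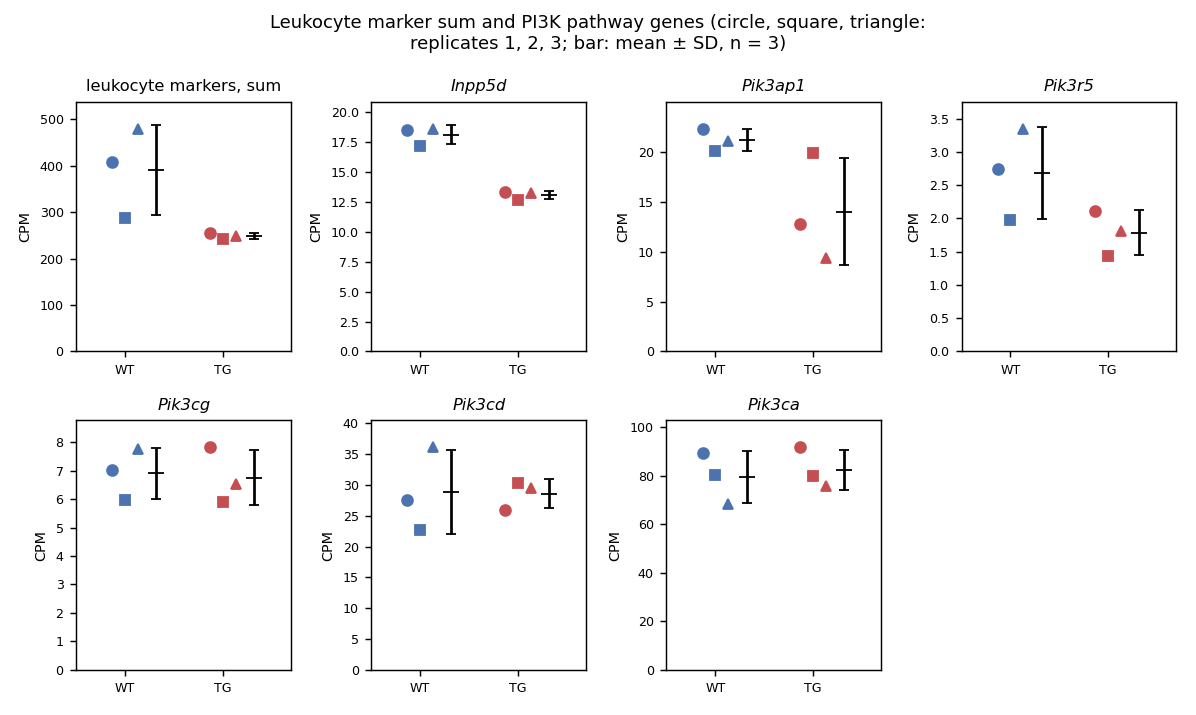
Summed level of 11 leukocyte markers and levels of 6 PI3K pathway genes (CPM, axes from 0) in 3 WT (blue) and 3 TG (red) ovaries, with mean ± SD (n = 3) beside the points. The marker sum, Inpp5d and Pik3ap1 are lower in all 3 TG libraries than in any WT library, whereas the points of Pik3r5, Pik3cg, Pik3cd and Pik3ca overlap.

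A further list held genes next to the IGF receptors. Of its 12 tested members (17 in the table, the others with too few counts) 0 passed, 10 were below 0 and the median was -0.06. The smallest p values belonged to Ctsd, a lysosomal protease, at -0.13 (SE 0.09), the insulin receptor-related gene Insrr at -0.41 (SE 0.42, about 1 CPM) and the phosphatase gene Ptpn1, which switches the insulin receptor off, at -0.07 (SE 0.08). Over all 71 tested genes of the wider pathway 27 were above 0 and 44 below. Of all genes tested 49.3% were below 0.

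Since interferon-stimulated genes such as Ifit1 and Irf7 were lower in TG, the sequence before the members' start sites was read for the core of the interferon-stimulated response element (GAAA, any 2 bases, and GAAA again) on both strands. RefSeq windows on GRCm38.p6 were present for 35 members, with 53 start sites, and the 250 bases before each were used. The core was found in 1 of these 53 windows (1.89%), beside 2.98% of all 32851 windows and 36.1% of the 133 windows of genes that were lower in TG. The 1 window is the first of 6 start sites of Sgk1, at chr10:21881934-21882183 on the plus strand, and the match lies 111 bases before the start. It is shown, 5′ to 3′ with the match in capitals as its reverse complement, because Sgk1 was the member that passed under 1 choice of libraries.

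Sgk1: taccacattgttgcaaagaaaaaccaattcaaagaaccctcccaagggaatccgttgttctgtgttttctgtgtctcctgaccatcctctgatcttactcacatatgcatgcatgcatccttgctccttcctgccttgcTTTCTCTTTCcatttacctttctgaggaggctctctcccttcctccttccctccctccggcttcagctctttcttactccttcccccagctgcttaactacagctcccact

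The FOXO binding letters GTAAACA were likewise found in 1 of the 53 windows, beside 3.17% of all windows. The Sgk1 window did not hold these letters, and the 1 window that did lacked the interferon core. That window belongs to Akt1, at chr12:112674885-112675134 on the minus strand, with the match 161 bases before 1 of 2 start sites. It is shown with the match in capitals, again as its reverse complement, since it is the 1 member window with the letters that FOXO factors, the pathway's own transcription factors, bind.

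Akt1: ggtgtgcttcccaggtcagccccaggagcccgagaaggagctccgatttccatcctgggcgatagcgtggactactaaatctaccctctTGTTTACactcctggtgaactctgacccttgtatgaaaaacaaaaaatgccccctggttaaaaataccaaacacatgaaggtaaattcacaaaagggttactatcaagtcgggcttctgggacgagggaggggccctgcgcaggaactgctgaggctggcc

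A match of letters is a description and not a bound site, and no match says only that these letters are not in the window.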

How the data were processed

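RNA from 6 ovaries was sequenced on a BGISEQ-500, per the labels' protocols. Build mm10 and the tools RSEM 1.3.1, Bowtie2 and DESeq2 1.4.5 are listed, without roles, in the submitters' processing notes. The table deposited by the authors holds estimated counts, per the file headers, of which 8.50% to 9.12% per library are not whole. The other deposited columns per library were taken as FPKM from the values: over 198 genes with 1 transcript of at least 3000 bases, the length implied by count and value was 94.8% to 95% of the annotated one (medians per library).

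Counts were rounded and fitted over the whole table in R 4.3.3 with edgeR 4.0.16 (TMM, filterByExpr with a minimum count of 10 and total of 15, quasi-likelihood, two-sided, Benjamini-Hochberg over 14124 genes, threshold 0.05). CPM uses effective library sizes of the tested genes. Intervals are 95% and reflect the spread between animals, which edgeR moderates for each gene with that of the other genes. On simulated data with 100 genes changed per fold size, in 5 draws over 14124 genes, 53.2% of 1.5-fold and 89.4% of 2-fold changes were recovered and 8% of calls were false. The changed genes were drawn only from those with higher mean counts, so the recovery rates do not cover genes with low counts. Alternatives were other factors and filters, DESeq2 1.42.0, limma 3.58.1 (voom, and trend on FPKM), a replicate block and left-out libraries. Strand and annotation are not given in the sources used here, and 21 of 39 members overlap another annotated gene, with which reads could be shared.

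Members and lists were chosen with earlier results of these data known. Values in every library were given for members with an adjusted p under 0.05, the 10 with the smallest p, the 10 with the highest FPKM, and Igf1, Igf2, Igf1r, Insr, Pappa and Foxo1. From each pathway list the 3 genes with the smallest p were named, apart from results not reported here. Marker lists covered granulosa, theca, stroma, oocyte, endothelium, leukocyte, adipocyte, oviduct, smooth muscle, surface epithelium and liver. Other genes named (Stc1, Pik3cg, Pik3r5, Star, Ptprc) were chosen after their values were seen.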

Additional observations from a re-analysis of the deposited data

How the results depend on the processing

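Over 17 alternatives the number of members that passed stayed at 0, except in a fit of 4 libraries that dropped TG replicate 2 together with WT replicate 3, where it was 1 (Sgk1 at -0.63, adjusted p = 0.0324). All genes passing ran from 119 to 202 beside 149. Of the wider pathway 0 genes passed, except 1, Pik3ap1, without TG replicate 2, so the range over left-out libraries was 0 to 1. The members' median log2 change of -0.01 stayed near 0: it was 0.0057 with upper-quartile factors, 0.0016 without composition factors, 0.00569 and 0.00591 with limma-trend on log2(FPKM + 1) and log2(FPKM + 0.1), between -0.0262 and 0.0154 with 1 library left out, and 0.0233 with the 4 libraries. Of 357 log2 changes of 21 members under these alternatives 328 kept their sign and side of the threshold, 28 changed sign and 1 newly passed.

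Apart from Igfbp6 (-0.35 with all libraries), the sign changes concerned members whose log2 change lay close to 0. Foxo1 was at 0.00015 with RLE factors, 0.0134 with upper-quartile factors, 0.0098 without composition factors and 0.000825 in DESeq2, and Igf2 at 0.0309 and 0.0434 with limma-trend at a pseudocount of 1 and of 0.1. With 1 library left out Igf2 ranged from -0.144 to 0.0121, Insr from -0.0849 to 0.0686, Igfbp2 from -0.0673 to 0.201, Igfbp4 from -0.0441 to 0.0022, Igfbp7 from -0.141 to 0.0429, Gsk3a from -0.0641 to 0.0326, Foxo1 from -0.134 to 0.0789 and Rheb from -0.0233 to 0.0795. With the 4 libraries Igfbp2 was at -0.114, Igfbp6 at 0.0416, Igfbp7 at 0.122, Foxo1 at 0.0926 and Rheb at -0.054. The cause was not tested.

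The labels give both genotypes replicate numbers 1 to 3. Deviations of same-numbered libraries from their group means correlated at 0.285, 0.104 and 0.0885 across genes, and each library correlated best with its own number, a hint from the data only. With the replicate block 0 members passed, 159 of all genes passed, and the median was -0.0064. In that fit 5 of 38 members (13.2%) had an unadjusted p under 0.05, beside 6.05% of all genes: Igf1r, Irs1, Igfbp3, Igfbp6 and Sgk1, whose adjusted p in edgeR ran from 0.367 to 0.818. Depth limits Pappa2, with 8 to 15 counts per library.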
